A study of Mus musculus with 6 samples.

Results

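The genes Cyp2d9, Cyp2d10, Cyp2d22, Cyp2d26, Cyp2f2, Cyp2g1, Cyp2j5, Cyp2j6, Cyp2r1 and Cyp2u1 are the cytochrome P450 genes of the Cyp2d and Cyp2j subfamilies and of smaller Cyp2 subfamilies that were followed here in mouse liver. They were chosen by name. Each was read through every probe set that the array annotation assigns to it, and its value is that of the probe set with the highest mean over the 6 arrays. These 10 genes are part of 18195 genes with a probe set, of which 12469 were bright enough to be tested. They have 14 of the 45101 probe sets on the array, 0 of which are shared with another gene in the annotation, and all 10 genes and all 14 probe sets passed the intensity filter.

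RNA of whole liver was hybridized to Affymetrix mouse genome arrays, 1 array for each of 3 GHRH-KO mice and 3 littermate controls. All mice were male, of a mixed C57BL6 and 129SV background, 10 months old by the study's methods and fasted for 6 to 8 h. In the GHRH-KO mice the gene for growth hormone-releasing hormone, Ghrh, is disrupted in every cell, and the labels call the controls wild-type. Neither group received a treatment in the labels. Growth hormone-releasing hormone normally drives the release of growth hormone from the pituitary. Values are given on the log2 scale after robust multi-array averaging (RMA), on which a step of 1 is a doubling of the signal, and they describe brightness on the array and not numbers of transcripts.

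Ghrh itself is made in the hypothalamus, and its probe set was at background in liver of both groups. It read 4.48, 4.41 and 4.75 in the 3 controls and 4.40, 4.55 and 4.57 in the 3 GHRH-KO mice, so it does not check the genotype. Its highest value, 4.75, was taken as the background level, and a difference is called a lower bound where the lower group's mean is at or under it. Deviations from each probe set's median over all arrays were spread widest on GHRH-KO replicate 5 (interquartile range 0.357) and Control replicate 2 (0.316). The range was 0.185 to 0.249 on the other arrays. This spread includes differences between the groups and not only scatter within them. Hepatocyte markers such as albumin were bright throughout, with a mean over 7 genes of 13.7 to 13.8 in controls and 13.8 to 13.9 in GHRH-KO mice, and 0 of the 7 were called.

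Enzymes of the cytochrome P450 family 2 are haem proteins of the endoplasmic reticulum that insert oxygen into drugs, steroids, fatty acids and vitamins, with electrons delivered by P450 reductase. In rodents many Cyp2 genes lie in tandem clusters of close relatives, and the expression of several of them in liver differs between males and females under the control of the pituitary pattern of growth hormone. In whole-liver RNA a smaller number of cells of one type and less RNA in each cell cannot be told apart.

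Cyp2d9 and Cyp2d10 are neighbours in the Cyp2d cluster of chromosome 15, and the log2 difference between GHRH-KO and control mice was -0.93 for the former and -0.09 for the latter. Upstream bases of both are shown for that reason, read 5′ to 3′ on the gene's own strand from the RefSeq sequence of GRCm38.p6. The promoter table gives 250 bases before 1 start site of each gene. For Cyp2d9 that site is the outer end of the gene, and the whole window is printed, chr15:82452127-82452376 (plus strand). For Cyp2d10 it lies 59 bases inside the gene as the reference table places it, and only the 191 bases outside the gene are printed, chr15:82407254-82407444 (minus strand). Capitals mark the bases that differ, or face a gap, when both are aligned.
Cyp2d9: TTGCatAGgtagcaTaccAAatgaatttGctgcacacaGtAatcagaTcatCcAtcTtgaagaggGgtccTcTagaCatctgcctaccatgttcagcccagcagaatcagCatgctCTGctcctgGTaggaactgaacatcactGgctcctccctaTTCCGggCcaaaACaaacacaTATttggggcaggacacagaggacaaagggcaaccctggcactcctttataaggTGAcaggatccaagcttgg
Cyp2d10: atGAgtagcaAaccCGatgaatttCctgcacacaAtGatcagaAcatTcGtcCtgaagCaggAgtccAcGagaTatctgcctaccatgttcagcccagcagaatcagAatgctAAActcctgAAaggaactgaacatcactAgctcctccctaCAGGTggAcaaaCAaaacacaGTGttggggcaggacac
Over both windows of 250 bases, 209 of 254 aligned columns were identical (82.3%), and 8 held a gap. By the same measure Cyp2d9 shared 52.0% and Cyp2d10 shared 51.7% with Cyp2d26, a more distant gene of the cluster, and the other pairs of members with a promoter in the table shared 43.8% to 49.1%.

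Motifs were searched on both strands of the whole 250 bases for the 7 members with an entry in the promoter table, which were Cyp2d9, Cyp2d10, Cyp2d26, Cyp2f2, Cyp2j5, Cyp2j6 and Cyp2r1. Cyp2d22 and the genes called lower below, Cyp2g1 and Cyp2u1, have no entry in that table and were not searched. Distances are counted from the start site of that table, which is the outer end of the gene for Cyp2d9 and Cyp2f2 and lies inside the gene for the other 5, by 59 bases in Cyp2d10, 207 in Cyp2d26, 52 in Cyp2j5, 76 in Cyp2r1 and 10654 in Cyp2j6, whose window is thus wholly within the gene. The letters TATAAG, a form of the TATA box that positions the start of transcription, were present in 4 of the 7, against 6.65% of 32851 promoters. They lay 26 to 21 bases before this site in Cyp2d9, 29 to 24 bases in Cyp2d10 and Cyp2d26, and 126 to 121 bases in Cyp2j5. Cyp2d9, Cyp2d10 and Cyp2d26 are relatives from the same cluster, so their matches are not independent, and 4 of 7 cannot be read as an enrichment. In the printed sequence of Cyp2d9 the match is the stretch tataag, in lower case since Cyp2d10 shares it. The STAT5 site TTCNNNGAA, bound by the factor that carries the growth hormone signal to the nucleus, was in 0 of the 7 against 7.02% of all promoters. With only 7 windows, 0 matches cannot be told from a share this low. The HNF1 motif GTTAAT (part of the full site) was in 1, Cyp2d26 (90 to 85 bases before the site), against 6.43%, and the E-box CACGTG was in 1, Cyp2j6 (44 to 39 bases before the site), against 6.02%. A match describes these letters only, and the absence of one says nothing of sites outside this window.

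Of the 10 genes, 2 were called lower in GHRH-KO liver, Cyp2u1 and Cyp2g1, and 0 were called higher. A call needed an adjusted p under 0.05 by limma, with Benjamini-Hochberg adjustment over all probe sets tested, and a fold change above 1.5 or below 0.67. Over all 12469 genes tested, 0.970% were called lower and 0.786% higher. At an unadjusted p under 0.05, 5 of the 10 were lower and 0 higher, where the shares over all genes were 10.1% and 9.15%. In 6 of the 10 every GHRH-KO array read below every control array (15.7% of all genes), in 1 every GHRH-KO array read above (12.7% of all genes), and in 3 the groups overlapped. The median log2 fold change of the 10 genes was -0.23, beside 0.00 over all genes tested. The changes of the 8 genes that were not called ran from -0.93 to 0.41.

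**Figure D1:**
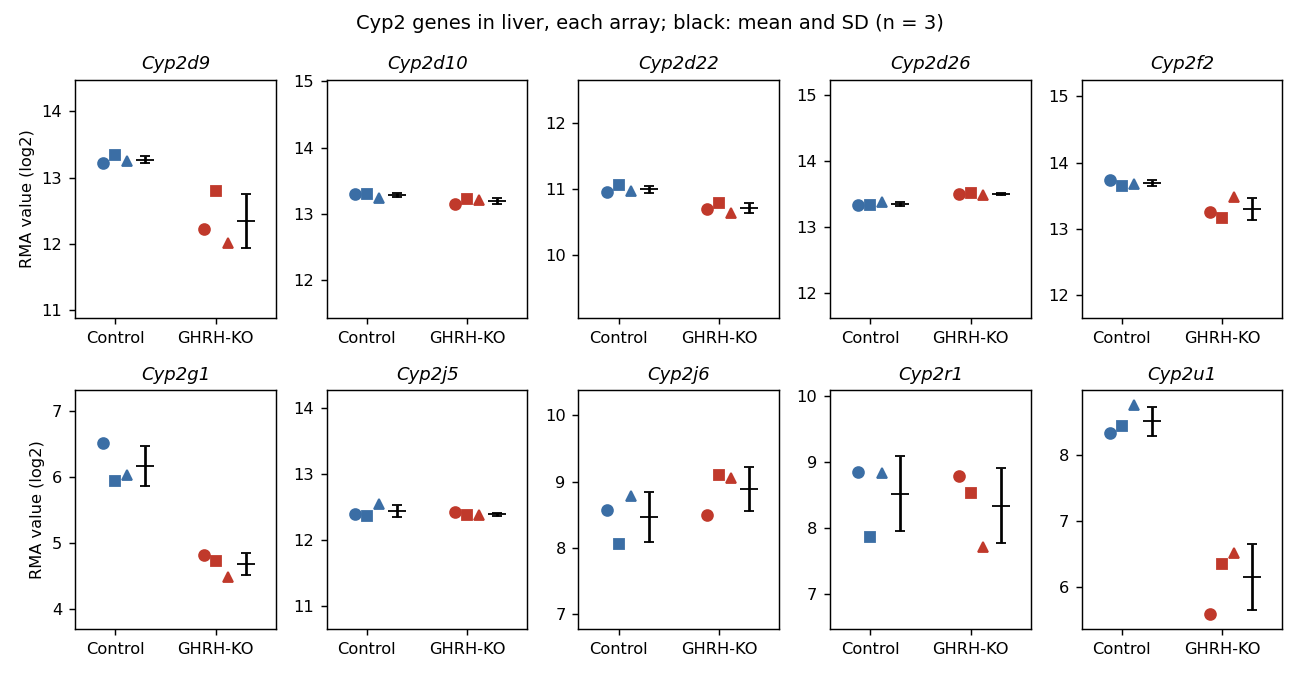
RMA values (log2) of each of the 10 Cyp2 genes on every array, controls in blue and GHRH-KO mice in red, with the mean and SD of 3 mice in black. Every panel spans the same number of log2 units, so that Cyp2u1, Cyp2g1 and Cyp2d9 show as wide gaps between the groups, while Cyp2j5 and Cyp2r1 overlap.

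Cyp2u1, which hydroxylates long-chain fatty acids at the end of the chain and is known from brain and thymus, had the largest difference of the 10. Its brighter probe set read 8.33, 8.43 and 8.75 in the controls and 5.59, 6.35 and 6.52 in the GHRH-KO mice. The lowest control lay 1.81 above the highest GHRH-KO value. The mean went from 8.50 ± 0.22 to 6.16 ± 0.50 (SD, n = 3 each), a fall of 2.35 on the log2 scale (SE 0.25, 95% interval -2.95 to -1.75) or 5.09 times, with an adjusted p of 0.00814 by limma. The gene lies on chromosome 3 (GRCm38.p6, chr3:131290491-131304157).

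A second, dimmer probe set of Cyp2u1 read 5.26, 5.51 and 5.49 in the controls and 4.43, 4.90 and 4.64 in the GHRH-KO mice. These groups did not overlap either. The difference was -0.76 (SE 0.15), but the adjusted p by limma was 0.0695 and it was not called, and since the GHRH-KO mean of 4.66 is under the background level it is a lower bound. The mean of both probe sets fell by 1.55 (adjusted p 0.00975, limma). The call of the brighter probe set was lost without Control replicate 2 (log2 difference -2.38, adjusted p 0.0512) and without both Control replicate 2 and GHRH-KO replicate 5 (-2.48, adjusted p 0.0691), while every alternative gave a fall of between 1.55 and 2.53.

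Cyp2g1, an enzyme best known from the olfactory mucosa, was dim in control liver and at background in GHRH-KO liver. It read 6.52, 5.94 and 6.03 in the controls and 4.82, 4.74 and 4.49 in the GHRH-KO mice. All 3 GHRH-KO arrays were lower than all 3 controls, with a gap of 1.13 between the groups. The means were 6.16 ± 0.31 and 4.68 ± 0.17 (SD, n = 3 each), a fall of 1.48 on the log2 scale or 2.79 times. The difference had an SE of 0.18, a 95% interval of -1.91 to -1.06 and an adjusted p of 0.0143 by limma. The GHRH-KO mean was under the background level, so the fall is a lower bound in that sense only. The interval leaves room for a fall of 1.06, and GHRH-KO replicate 4, at 4.82, was above that level.

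The call of Cyp2g1 was lost without Control replicate 3 (adjusted p 0.0543), without GHRH-KO replicate 6 (adjusted p 0.0610) and without both widest arrays (adjusted p 0.0646), although its fall stayed between 1.31 and 1.62 in the limma fits that tested it. Under the stricter intensity filter its probe set was too dim to be tested. Cyp2g1 is on chromosome 7 (chr7:26808927-26821197), in the cluster that also holds Cyp2f2 (chr7:27119955-27133660).

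Cyp2f2 oxidizes naphthalene and styrene, and is a marker of airway club cells and of hepatocytes near the portal vein. It read 13.74, 13.65 and 13.68 in the controls and 13.26, 13.17 and 13.48 in the GHRH-KO mice. Each GHRH-KO value was below each control value. The difference of -0.39 (SE 0.12, 95% interval -0.68 to -0.10) had an unadjusted p of 0.0149 and an adjusted p of 0.170 by limma, and was not called. Only 61 of the genes tested had a brighter mean.

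The log2 ratio of Cyp2f2 to Cyp2g1 within each array shows how unequal these differences were. Only the shift of such a ratio between groups is read here, since its level depends on the probes. It was higher by 1.09 in GHRH-KO mice, and it was higher in 3 of 3 than in any control. The exact two-sided permutation test gave p = 0.1, the smallest that 3 against 3 arrays allow, and 0.114 after adjustment over the 8 pairs compared. Because Cyp2g1 was at background in GHRH-KO liver, this shift is a lower bound too.

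**Figure D2:**
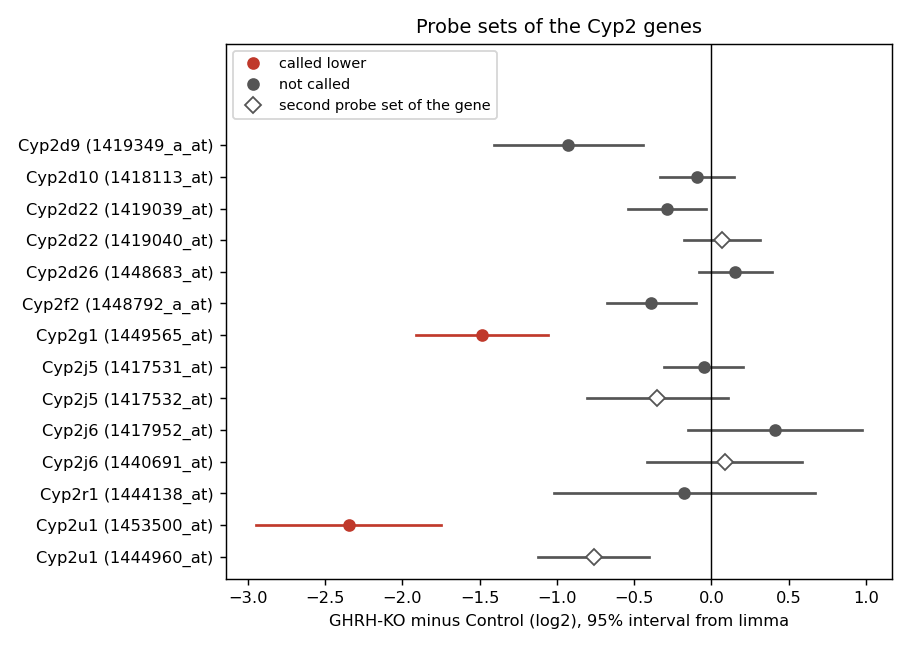
Difference between GHRH-KO and control mice (log2, horizontal axis) for each of the 14 probe sets of the Cyp2 genes, with the 95% interval from limma, red where called. The intervals of both Cyp2u1 probe sets, Cyp2g1, Cyp2d9, Cyp2f2 and the brighter Cyp2d22 probe set lie below 0, and open diamonds show the second probe set of a gene.

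The Cyp2d enzymes metabolize many amine drugs and steroids. Cyp2d9, a steroid hydroxylase typical of male mouse liver (chr15:82452377-82456827), read 13.22, 13.34 and 13.25 in the controls and 12.22, 12.80 and 12.02 in the GHRH-KO mice. All 3 GHRH-KO values were lower than the controls, and their SD of 0.41 was wide against 0.06 in the controls. The mean went from 13.27 to 12.35, a difference of -0.93 (SE 0.20, 95% interval -1.40 to -0.45) with an unadjusted p of 0.00252 and an adjusted p of 0.0841 by limma, so that it was not called.

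GHRH-KO replicate 5, the array with the widest deviations, held the highest of the 3 GHRH-KO values of Cyp2d9. Without it Cyp2d9 was called, with a log2 difference of -1.15 and an adjusted p of 0.0153 by limma. It was also called with array weights in limma (-1.13, adjusted p 0.0128) and without both widest arrays (-1.12, adjusted p 0.0437). The weighted fit leaned on GHRH-KO replicate 6, which held the lowest Cyp2d9 value. Its weight was 3.35, against 0.40 to 1.37 on the other arrays. Over all alternatives the adjusted p of Cyp2d9 ran from 0.0128 to 0.214.

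Cyp2d10 (chr15:82402845-82407253), whose upstream bases resemble those of Cyp2d9, read 13.30, 13.30 and 13.24 in the controls and 13.14, 13.23 and 13.20 in the GHRH-KO mice. The groups were apart by 0.02 only. The difference was -0.09 (SE 0.10, 95% interval -0.33 to 0.15, adjusted p 0.655 by limma), an interval that leaves room for a fall of up to 0.33.

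Cyp2d26 (chr15:82790107-82794452) was the one gene of the 10 in which every GHRH-KO array was higher than every control, by the probe set that stands for the gene. It read 13.33, 13.33 and 13.38 in the controls and 13.50, 13.52 and 13.49 in the GHRH-KO mice, a difference of 0.16 (SE 0.10, 95% interval -0.08 to 0.39, adjusted p 0.444 by limma) that was not called.

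Cyp2d22, often studied as the mouse counterpart of human CYP2D6 (chr15:82370527-82380260), has 2 probe sets that went opposite ways. The brighter read 10.96, 11.06 and 10.97 in the controls and 10.69, 10.79 and 10.64 in the GHRH-KO mice. Its groups did not overlap, and its difference was -0.29 (SE 0.11, 95% interval -0.54 to -0.04, unadjusted p 0.0298, adjusted p 0.224 by limma). The second read 10.1502, 10.004 and 10.13 in the controls and 10.1517, 10.17 and 10.17 in the GHRH-KO mice, a difference of 0.07 (SE 0.10, adjusted p 0.756 by limma). Its groups did not overlap either, but with the GHRH-KO mice higher and a gap of only 0.0015. This second probe set was the only one of the 14 whose sign opposed that of its gene's value.

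Within each array Cyp2d9 was lower relative to each of its relatives in GHRH-KO liver. The log2 ratio of Cyp2d9 to Cyp2d10 was -0.08, 0.03 and 0.01 in the controls and -0.92, -0.42 and -1.19 in the GHRH-KO mice. The groups were apart, with a shift of -0.83. The ratio to Cyp2d22 shifted by -0.64 and the ratio to Cyp2d26 by -1.08, again with 3 of 3 GHRH-KO arrays below all controls.

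The other Cyp2d genes shifted less against each other. Cyp2d10 against Cyp2d26 shifted by -0.25 and Cyp2d22 against Cyp2d26 by -0.45, and Cyp2d10 against Cyp2d22 by 0.20. With the mean of both Cyp2d22 probe sets, the last of these became 0.02 and the shift of Cyp2d22 against Cyp2d26 became -0.27. All 6 Cyp2d ratios had groups that did not overlap, an exact two-sided permutation p of 0.1, the smallest possible here, and an adjusted p of 0.114, so none passed a threshold of 0.05.

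**Figure D3:**
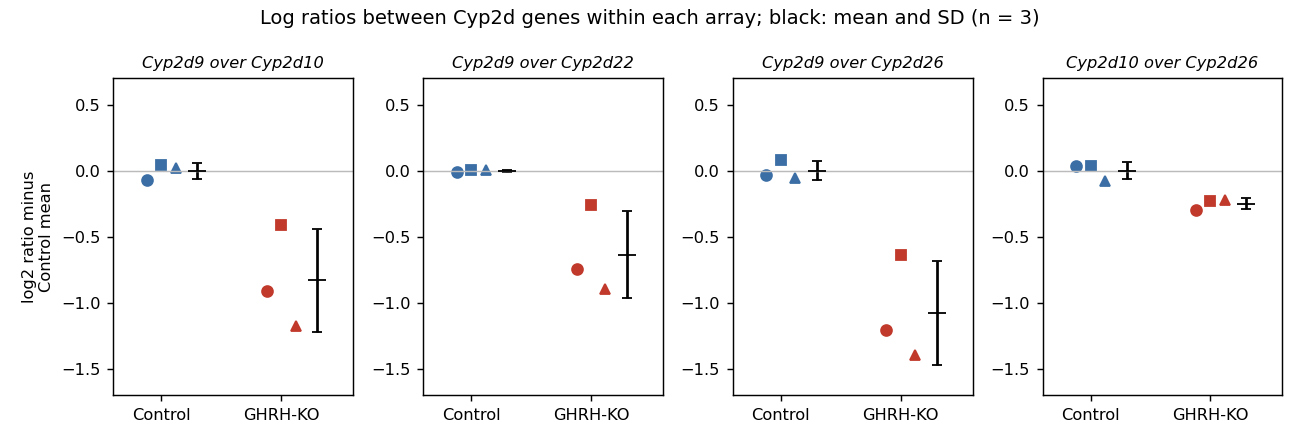
Log2 ratios between pairs of Cyp2d genes within each array, less the control mean (vertical axis), controls in blue and GHRH-KO mice in red, with mean and SD of 3 mice in black. The 3 ratios with Cyp2d9 were lower by 0.64 to 1.08 in GHRH-KO mice and spread widely, while Cyp2d10 over Cyp2d26 was lower by 0.25 with little spread.

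Other genes of the Cyp2d and Cyp2j clusters that could be tested were all lower in mean, but none of them was called. They were 4 of 7 listed, with a median of -0.60, and 2 of the 4 had an unadjusted p under 0.05. Cyp2d12 differed by -0.66 (adjusted p 0.320), Cyp2d13, a transcribed pseudogene, by -0.54 (adjusted p 0.150), Cyp2d40 by -0.35 (adjusted p 0.432) and Cyp2j9 by -0.68 (adjusted p 0.149), all by limma. Whether the Cyp2d probe sets also bind transcripts of close relatives was not tested.

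**Figure D4:**
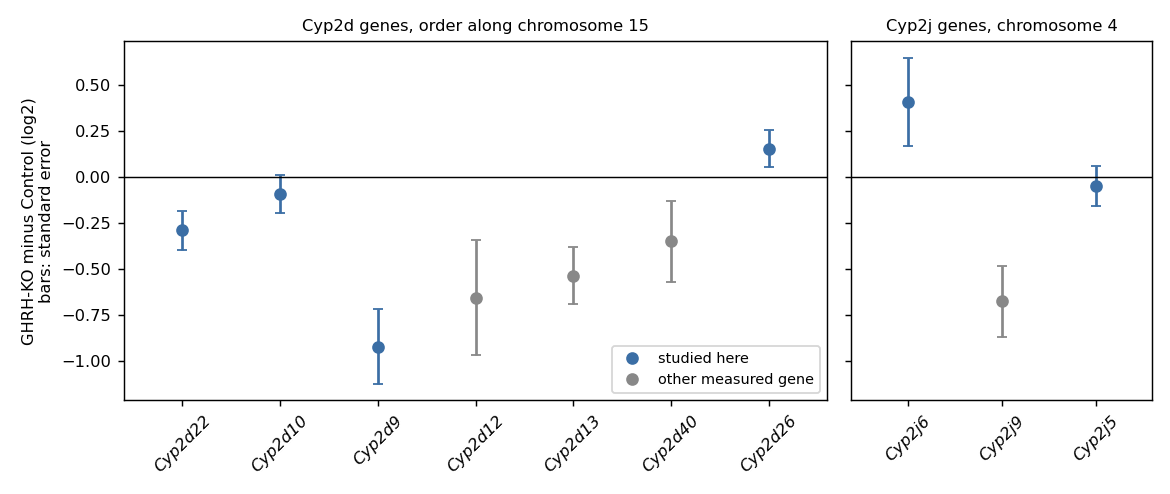
Difference between GHRH-KO and control mice (log2, bars are standard errors from limma) for the Cyp2d genes in their order on chromosome 15 and the Cyp2j genes on chromosome 4, with the genes studied here in blue and their other tested neighbours in grey. Cyp2d9 lies lowest at -0.93, between Cyp2d10 at -0.09 and Cyp2d12 at -0.66, and Cyp2d26 and Cyp2j6 are above 0.

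Cyp2j enzymes convert arachidonic acid to epoxides, lipid mediators that soluble epoxide hydrolase breaks down. Cyp2j5 (chr4:96627432-96664171), abundant in kidney and liver, read 12.40, 12.37 and 12.55 in the controls and 12.42, 12.37 and 12.37 in the GHRH-KO mice. The groups overlapped, with a difference of -0.05 (SE 0.11, 95% interval -0.30 to 0.20, adjusted p 0.834 by limma). Its second probe set read 10.54, 10.52 and 10.68 against 10.60, 9.85 and 10.23, a difference of -0.35 (SE 0.19, adjusted p 0.383 by limma) with the lowest value on GHRH-KO replicate 5.

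Cyp2j6 (chr4:96516138-96564305), known from the intestine among other organs, was not called. It read 8.58, 8.05 and 8.79 in the controls and 8.50, 9.10 and 9.05 in the GHRH-KO mice, and the lowest GHRH-KO value lay within the control range. The difference was 0.41 (SE 0.24, 95% interval -0.15 to 0.98, adjusted p 0.401 by limma), and it was 0.20 without Control replicate 2 and 0.09 without both widest arrays. Its second probe set read 8.53, 8.27 and 8.76 against 8.30, 9.01 and 8.50, a difference of 0.08 (SE 0.21, adjusted p 0.862 by limma). The log2 ratio of Cyp2j5 to Cyp2j6 shifted by -0.46 with overlapping groups (exact two-sided permutation p = 0.3, also after adjustment). This shift was -0.29 without Control replicate 2, -0.17 without both widest arrays and -0.76 with the probe set of lowest p for each gene.

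Cyp2r1 is the microsomal enzyme that makes the circulating form of vitamin D in liver (chr7:114550123-114563048). It read 8.85, 7.86 and 8.84 in the controls and 8.79, 8.53 and 7.71 in the GHRH-KO mice. One mouse of each group was low, on Control replicate 2 and GHRH-KO replicate 6, and the groups overlapped. The difference was -0.18 (SE 0.36, 95% interval -1.02 to 0.67, adjusted p 0.824 by limma), the widest interval of the 10, and it ran from -0.66 with array weights to 0.14 without GHRH-KO replicate 6.

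**Figure D5:**
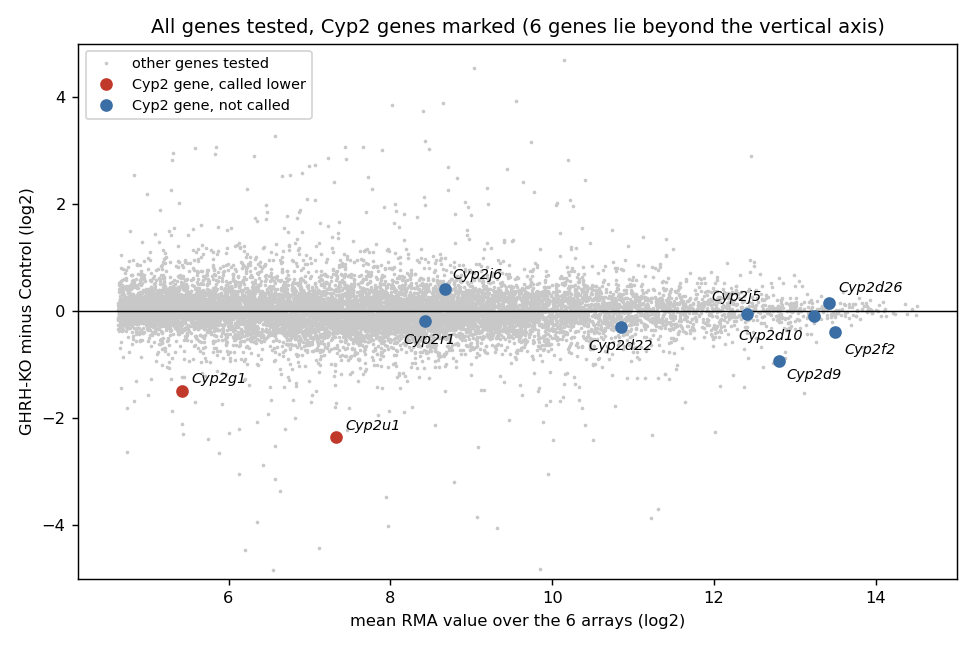
Mean RMA value over the 6 arrays (log2, horizontal axis) against the difference between GHRH-KO and control mice (log2, vertical axis) for every gene tested, with the 10 Cyp2 genes marked, red where called, and 6 genes beyond the vertical axis. The members span the range of brightness from Cyp2g1 to Cyp2f2, and Cyp2u1 at -2.35, Cyp2g1 at -1.48 and Cyp2d9 at -0.93 lie lowest of the 10.

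The genes whose profile over the 6 arrays was most like that of each called member, by root mean square difference after centring on the control mean, were found among all genes tested. For Cyp2u1 they were Zfp9 (distance 0.252, fall of 2.52, adjusted p 0.00100), Mup10 (0.282, fall of 2.32, adjusted p 4.79e-04) and Mn1 (0.293, difference -2.19, adjusted p 0.0598, not called), all by limma. Mup10 belongs to a family of near-identical urinary protein genes, so its identity on the array is uncertain. For Cyp2g1 they were Shfl (0.168, difference -1.33, adjusted p 0.0556, not called), Cks1b (0.176, fall of 1.49, adjusted p 0.00157) and Bmyc (0.203, fall of 1.69, adjusted p 0.00270).

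Calls among the Cyp2 genes outside the 10 went in both directions. Of 40 listed, among them Cyp2d12, Cyp2d40 and Cyp2j9 from above, 18 were tested, 3 were called higher and 1 lower, with 7 higher and 5 lower before adjustment (p under 0.05) and a median of 0.13. Cyp2b13 rose by 4.71 (adjusted p 0.0427), Cyp2c38 by 1.40 (adjusted p 0.0461) and Cyp2c39 by 1.35 (adjusted p 0.0149), and Cyp2c54 fell by 1.26 (adjusted p 0.0220), all by limma.

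Calls among partners of the Cyp2 enzymes are given beside the shares over all genes tested, 0.786% called higher and 0.970% lower. P450 reductase, Por, was listed among the electron donors but could not be tested. Of 16 electron donors and haem enzymes tested, 1 was called higher, Urod of haem synthesis (0.77, adjusted p 0.0273 by limma, a probe set that may bind other transcripts), and 0 lower, with 2 and 1 at an unadjusted p under 0.05. Of 8 arachidonate and epoxide enzymes tested, 1 was called lower, the prostaglandin D synthase Ptgds (fall of 0.81, adjusted p 0.0310 by limma), and 0 higher. Of 4 genes of the vitamin D pathway tested, 0 were called, with 1 lower and 0 higher before adjustment (p under 0.05). The medians of these lists were 0.00, -0.02 and -0.30.

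Among 23 regulators of hepatic P450 genes tested, 0 were called, with 4 higher and 6 lower before adjustment (p under 0.05) and a median of -0.16. Male-biased liver genes, the group to which Cyp2d9 is known to belong, were called lower in 10 of 12 tested, with a median of -3.58. Among them Hsd3b5 fell by 8.56, Slco1a1 by 6.69, Obp2a by 4.83 and Elovl3 by 4.81. This list was chosen with earlier results of these data known. The paper itself names Hsd3b5, Slco1a1, Elovl3, Egfr and Gstp1 as decreased in these arrays. The count is thus not independent of the data and is no support for the difference of Cyp2d9. Hsd3b5 and Obp2a were at background in GHRH-KO liver, with means of 3.42 and 4.14, so their falls are lower bounds in the same sense. Of the hepatocyte zones, 0 of 12 periportal genes (median -0.17, 1 higher and 1 lower before adjustment) and 0 of 14 pericentral genes (median 0.08, 3 higher and 0 lower) were called, beside the difference of -0.39 for the periportal Cyp2f2.

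Markers of other cell types were read beside these results. None of 8 macrophage, 2 lymphocyte, 2 neutrophil, 6 endothelial, 8 stellate and 3 cholangiocyte genes tested was called, with medians of 0.32, 0.55, 0.78, 0.13, 0.32 and -0.54, and with 4 genes higher and 1 lower before adjustment (p under 0.05). The mean of the macrophage list was 7.75 to 9.13 in controls and 7.57 to 9.11 in GHRH-KO mice, and that of the stellate list 7.92 to 8.51 and 8.46 to 8.80. Of the erythroid list only Alas2 was tested, which fell by 1.36 (adjusted p 0.0219 by limma), from 10.7 to 11.2 in controls to 9.33 to 9.86 in GHRH-KO mice. The part of these cells in the differences of Cyp2u1 and Cyp2g1 was not tested.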

How the data were processed

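Liver RNA of 3 control and 3 GHRH-KO mice, each a separate animal, was measured on 1 array each. The authors normalized the arrays by RMA (version not given in the sources used here) and deposited log2 values. Their MAS 5.0 detection filter cannot be repeated from RMA values, so after removal of 64 control probe sets the brightest 25145 by mean were tested, the number which that filter kept in the study.

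The groups were compared by limma 3.58.1 (R 4.3.3; lmFit, then eBayes) with no covariate, since the labels give no batch, with Benjamini-Hochberg adjustment over all probe sets tested. The fit was tested on simulated data, with 50 probe sets changed by each of 4 known amounts. It called 58% of those raised by 1 on the log2 scale and 36% of those lowered by 1. Both directions were simulated and called alike, in a single draw, so this gap does not show that falls are harder to call. Of those raised or lowered by 2 it called 96%. Of 149 probe sets called in all, 6 were unchanged. Changes near 1 can thus be missed in either direction. Calls needed an adjusted p under 0.05 and a fold above 1.5 or below 0.67. Log ratios were compared by exact permutation in Python 3.11.15 with SciPy 1.17.1, promoters were aligned with Biopython 1.88, and figures were drawn with matplotlib 3.10.9.

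The probe annotation names a single gene for 34958 probe sets, several for 932 and none for 9211, and 34754 were matched to the gene table of GRCm38.p6, which gave the coordinates. The promoter table holds no entry for Cyp2d22, Cyp2g1 and Cyp2u1, so their promoters were not searched. The named genes are the 10 members, Ghrh, up to 4 called genes with the largest difference from each pathway list, and for each called member the 3 genes of most similar profile. Members, lists and alternatives were chosen with earlier results of these data known. Lists were counted, not tested. Arrays have no read depth, and their number limits the precision. The alternatives changed the intensity filter, the probe set that stands for a gene, the normalization, the variance model and the arrays.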

Additional observations from a re-analysis of the deposited data

How the results depend on the processing

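Of the 16 alternatives, the stricter intensity filter called 1 of the 10 genes lower, Cyp2u1. Leaving out Control replicate 2 and GHRH-KO replicate 5 together also gave 1 called lower, but this was Cyp2d9. The calls of Cyp2u1 and Cyp2g1 were both lost there. Without single replicates the number of the 10 called lower ran from 1 to 3, and 0 were called higher in any alternative run. Weighting the arrays raised the genes called over the whole array to 248 higher and 288 lower, from 98 and 121, and without both widest arrays they were 42 and 64. Without single replicates they ran from 36 to 93 higher and from 46 to 95 lower. The median of the 10 genes was -0.30 with array weights, -0.32 without both widest arrays, -0.32 with the probe set of lowest p, and -0.33 to -0.18 without single replicates. The sign turned for 2 genes that were not called: Cyp2j5 ran from -0.085 to 0.0052 without single replicates (positive without Control replicate 3) and Cyp2r1 from -0.50 to 0.14 (positive without GHRH-KO replicate 6). The cause of these changes was not tested. No paired analysis was possible because the labels name no litter or other pairing of the mice. With 3 arrays a group and an SE of 0.10 to 0.36 for the 10 genes, small differences could not be told from the spread between mice.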
